A study of Homo sapiens with 12 samples.

Results

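The 6 arrays described here compare MDA-MB-231 cells that received lentiviral particles with a short hairpin RNA (shRNA) against HDAC5 (3 arrays) with cells that received particles with a scramble shRNA (3 arrays). They were chosen by their titles from the 12 arrays of the series: the 3 titled HDAC5 shRNA, and the 3 titled scramble shRNA that carry no LSD1 tag. The other 6 arrays hold LSD1 shRNA (3) and a separate scramble set tagged LSD1 (3), and were used where a change is set beside that of another shRNA. All cells were cultured in the usual way for this line, an established human breast cancer line of the triple-negative, mesenchymal kind, and every group, controls included, had been transduced with lentivirus. The labels call the 3 samples of a group biological replicates. Whether separate cultures, transductions or days lie behind them, or a clone was picked after transduction, is not stated. The p-values thus measure the spread between these samples, which may be technical. With 1 hairpin product for the target, effects of HDAC5 loss and other effects of that product cannot be told apart. Genes of the cell cycle, of the stress responses and of cytokine and interferon signalling are set aside here in 3 lists. These lists do not hold every such gene. The account turns to metabolism, transport, signalling and lineage genes.

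HDAC5 is a class IIa histone deacetylase that shuttles between nucleus and cytoplasm and represses transcription as part of larger complexes, with the MEF2 factors of muscle, neurons and blood vessels as its best known partners. Phosphorylation by kinases such as those of the protein kinase D and CaM kinase families moves it out of the nucleus, and 14-3-3 proteins hold it in the cytoplasm. Class IIa enzymes have weak deacetylase activity of their own and act largely by bringing class I HDAC3 and corepressors to their targets.

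RNA was measured as biotin-labelled cRNA on Affymetrix 3′ expression arrays, and a value is the deposited log2 signal, so a difference of 1 is a 2-fold change. There were 11963 genes with a probe set of a single gene symbol, the one with the highest mean being taken for each. The correlation between arrays of a group was 0.9983 to 0.9990 for scramble and 0.9985 to 0.9989 for HDAC5 shRNA, and the median SD of a gene over 3 arrays was 0.066 and 0.067. HDAC5 itself read 7.56, 7.42 and 7.22 on the scramble arrays and 6.17, 6.19 and 6.50 with HDAC5 shRNA, so the groups did not overlap. Among markers of the cell line, VIM, CD44, CAV1, EGFR and AXL all lay above the upper quartile of the arrays (9.02 to 9.05). PGR and CDH1 lay below the lower quartile (4.59 to 4.65), ESR1, ERBB3 and FOXA1 below the median (6.59 to 6.65), and GATA3 and EPCAM above it. Of 5 measured blood cell markers 2 lay below the lower quartile, and HBB, the highest, lay close to the median (6.66 with scramble and 6.58 with HDAC5 shRNA). Of 4 fibroblast markers COL1A1 (7.71 and 7.61) lay above the median, and of 3 endothelial markers PECAM1 (7.37 and 6.75). As a measure of RNA quality, the signal of the 3′ probe set of ACTB exceeded that of the 5′ one by 0.90 ± 0.06 (SD, n = 3) with scramble and by 0.68 ± 0.08 on the HDAC5 shRNA arrays. The gap between these, -0.22, had a two-sided exact permutation p = 0.1, the smallest that 3 against 3 arrays allow. The same measure for GAPDH differed by -0.02 (exact permutation p = 0.2). Their part in the changes below was not tested.

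The scramble arrays of the HDAC5 experiment stood apart from the other scramble set. Whether the authors processed all 12 arrays together is not given, so the arrays were first brought to 1 distribution by quantile normalization. Their correlation with the scramble arrays of the LSD1 experiment was then 0.963 to 0.975, and that of the HDAC5 shRNA arrays with the same arrays was 0.979 to 0.985. Of the genes that changed, 75.5% (4018 of 5319) had a mean in the LSD1 experiment's scramble set nearer to the HDAC5 shRNA mean than to the mean of the scramble set it is compared with here. Among those that changed at least 2-fold the share was 94.5% (392 of 415), and over all genes 63.2%. On the same scale HDAC5 itself had a mean of 6.55 on the HDAC5 shRNA arrays. This lay below its means of 7.60 and 7.07 in the scramble sets of the HDAC5 and LSD1 experiments. The 7.07 was about midway between the other means, and marginally nearer to that of HDAC5 shRNA. The groups rest on the titles, and beyond the HDAC5 level the labels were not tested. Experiment, processing and condition cannot be told apart in these levels, and a change below is a difference between the 2 groups of 3 arrays, with no statement on which of them moved.

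A gene was called changed at an adjusted p under 0.05 (limma, Benjamini-Hochberg over all 11963 genes). This held for 44.5% of genes, 21.3% higher and 23.2% lower, and the shares of each gene list below are read against these. Most of the changes were small, with a median size of 0.37. A change of at least 2-fold was called for 3.47% of genes, 1.66% higher and 1.81% lower. Outside the 3 lists set aside, 84 genes were higher and 181 lower by at least 2-fold, whereas on those lists, with 451 measured genes, 114 were higher and 36 lower. At 4-fold, 9 genes were higher and 25 lower. The LSD1 arrays vary more, and when the spread was estimated over all 12 arrays, 34 of the counts of higher or lower list members below moved by over 1.5 times and 42 did not; those of 1 or 2 members and of the list not reported here aside, the counts that moved are given beside each list. In some named genes LSD1 shRNA array 2 stood apart from the rest of its group. ASS1 read 8.01, 9.81 and 7.96 on the 3 LSD1 shRNA arrays, and TUBB2A 11.83, 11.08 and 11.87. The part of this array in the wider spread and in the counts over 12 arrays was not tested. Groups without overlap, all 3 HDAC5 shRNA arrays above or below all 3 scramble arrays, were found for 50.8% of genes.

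**Figure D1:**
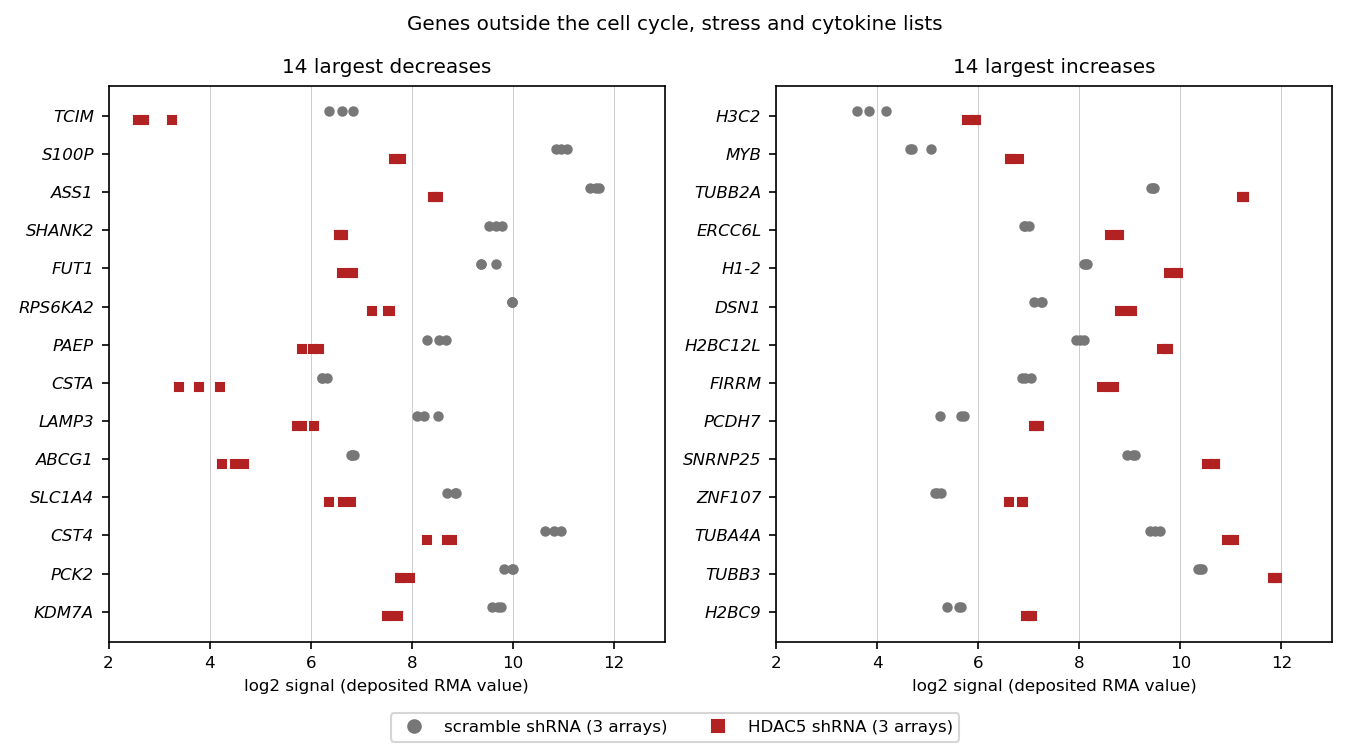
Deposited log2 signal (x axis) on each of the 3 scramble arrays (grey circles) and 3 HDAC5 shRNA arrays (red squares) for the 14 largest decreases (left) and 14 largest increases (right) outside the cell cycle, stress and cytokine lists. Only genes whose circles and squares are separate could be chosen. The decreases, down to -3.76 for TCIM, were larger than the increases, up to 2.02 for H3C2.

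The largest decreases outside those lists were in genes of quite different roles. S100P, a calcium-binding protein gene of epithelial tumours, read 10.95, 11.07 and 10.85 on the scramble arrays and 7.64, 7.67 and 7.79 with HDAC5 shRNA. FUT1, the fucosyltransferase that makes the H blood group antigen, read 9.38, 9.66 and 9.38 against 6.82, 6.61 and 6.83, a change of -2.72 (SE 0.09, adjusted p = 1.72e-08). In both genes the groups were separated by far more than the spread within either. RPS6KA2, which encodes the ribosomal S6 kinase RSK3 downstream of ERK, fell from 9.98, 9.99 and 9.97 to 7.21, 7.53 and 7.57 (-2.55, SE 0.09), and its further probe set fell by 1.28 on the log2 scale. PAEP, the glycodelin gene of the endometrium, fell by 2.49, from 8.67, 8.53 and 8.31 to 5.83, 6.16 and 6.04. ABCG1, which exports sterols to lipoproteins, went from 6.81, 6.79 and 6.86 to 4.24, 4.68 and 4.50 (-2.35, SE 0.10), with its further probe set at -1.41. KDM7A, a demethylase of repressive histone marks, read 9.58, 9.75 and 9.70 on the scramble arrays and 7.73, 7.51 and 7.55 with HDAC5 shRNA (-2.08, SE 0.07). The cysteine protease inhibitor genes CSTA (-2.46, SE 0.16) and CST4 (-2.20, SE 0.12) fell as well. CSTA, ABCG1 and TCIM, a regulator of Wnt signalling, ended at means below the lower quartile, where background limits the signal and the size of a decrease is not exact. SHANK2, a scaffold gene of synapses, fell by 3.07 on a pair of its probe sets and differed by 0.01 and -0.13 on the other two, which did not pass.

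The largest increases outside those lists included 4 histone genes and 3 tubulin genes. The cell cycle list is not complete, and genes of mitosis such as DSN1 and ERCC6L are outside it. Increases outside the lists are thus not all apart from the cell cycle. TUBB2A, a beta tubulin, read 9.46, 9.48 and 9.43 on the scramble arrays and 11.22, 11.26 and 11.26 with HDAC5 shRNA (1.79, SE 0.04, adjusted p = 1.29e-09). TUBB3, the beta tubulin of neurons and of many tumours, rose by 1.48 (SE 0.04) and by 1.40 on its further probe set, and TUBA4A by 1.50 (SE 0.06). Each tubulin gene had 3 closely spaced values per group. H3C2 rose by 2.02 from a mean below the lower quartile, and H1-2 by 1.76, H2BC12L by 1.70 and H2BC9 by 1.46. Histone and tubulin genes have near-identical copies that a probe set can share, so these values may hold signal of related genes. MYB, a transcription factor of blood progenitors and luminal breast cells, rose from 5.06, 4.70 and 4.65 to 6.63, 6.64 and 6.80 (1.89, SE 0.11), while its further probe set was at 0.03 and did not pass. PCDH7, a protocadherin gene, rose by 1.60 on the probe set used and by 0.92 and 0.55 on a pair of others, and fell by 0.30 on the last. The kinetochore gene DSN1 (1.73), the mitotic helicase gene ERCC6L (1.78) and the DNA repair gene FIRRM (1.64) were among the rest, together with SNRNP25, a protein of the minor spliceosome (1.59), and the zinc finger gene ZNF107 (1.59).

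Enzymes of amino acid metabolism and the carriers that move amino acids were lower more often than higher. Of 29 measured enzymes of amino acid metabolism other than serine and glycine, 13 were lower and 6 higher, and the median change was -0.14, against -0.02 over all genes. ASS1 makes argininosuccinate, the precursor of arginine. It read 11.64, 11.70 and 11.52 on the scramble arrays and 8.48, 8.43 and 8.51 with HDAC5 shRNA. PCK2, a gene of the glycolysis list whose mitochondrial PEP carboxykinase links amino acid carbon to glucose synthesis, fell from 9.97, 10.01 and 9.82 to 7.78, 7.76 and 7.97 (-2.10, SE 0.07, adjusted p = 1.97e-08). BCKDHA, a subunit of the branched-chain ketoacid dehydrogenase, fell by 1.08 (SE 0.07) and PYCR1, which makes proline, by 1.05 (SE 0.05). ARG2, the mitochondrial arginase, was lower by 1.28 (SE 0.06) on the probe set used and at 0.02 on its further probe set. Among genes of polyamines, picked out after their values were seen, ODC1, the first step of synthesis, rose by 0.47 (SE 0.06) and the spermidine synthase gene SRM by 0.99 (SE 0.07), while SAT1, which acetylates polyamines for breakdown and export, fell by 0.47 (SE 0.04).

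Serine, glycine and folate enzymes changed in both directions. Of 20 measured, 6 were higher and 6 lower, with a median of -0.01, and all 4 changes of at least 2-fold were decreases. PHGDH, the first enzyme of serine synthesis, fell from 9.76, 9.77 and 9.64 to 8.13, 8.18 and 8.34 (-1.50, SE 0.07), and lower values were also seen for PSAT1, the second enzyme (-1.32, SE 0.05), and the mitochondrial folate enzyme MTHFD2 (-1.09, SE 0.04). AMT, part of the glycine cleavage system, fell by 1.44 (SE 0.06). Of these, 3 also stand on the stress list, which holds 5 of the 20 genes, and without those 5 there were 6 higher and 1 lower. MTHFD1, the cytoplasmic counterpart of MTHFD2, rose from 10.73, 10.79 and 10.71 to 11.31, 11.34 and 11.38 (0.60, SE 0.04), and GGH, which trims folate chains, by 0.62 (SE 0.05). GCSH, the carrier protein of glycine cleavage, rose by 0.32 (SE 0.04), opposite to AMT.

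Among 24 measured amino acid transporters 13 were lower and 4 higher, and the median change was -0.30. SLC1A4, a neutral amino acid carrier for serine and alanine, read 8.88, 8.86 and 8.70 on the scramble arrays and 6.36, 6.63 and 6.80 with HDAC5 shRNA (-2.21, SE 0.10, adjusted p = 1.07e-07). Its 3 further probe sets fell too (-2.37, -0.53 and -2.77). SLC7A5, the leucine carrier, and SLC3A2, its heavy chain, fell by 1.28 (SE 0.07) and 1.11 (SE 0.05), the cystine carrier gene SLC7A11 by 1.38 (SE 0.04), and SLC43A1, another leucine carrier, by 1.05 (SE 0.10). The glutamine carrier gene SLC1A5 fell from 9.14, 9.02 and 8.98 to 8.14, 8.40 and 8.34 (-0.75, SE 0.07). SLC36A1, a carrier of small amino acids in the lysosome and plasma membrane, rose by 0.65 (SE 0.06). The stress list holds 4 of these 24 genes, and without them 9 were lower and 4 higher. Over all 12 arrays 2 of the 24 were higher.

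The promoters of these genes were searched for the composite element that C/EBP and ATF family factors bind in amino acid response genes, TGATGNAA on either strand. The windows were those of RefSeq on GRCh38.p14, from 250 bases before to 50 bases after the start of a gene, and 9562 measured genes had a window. The element stood in 2.25% of all windows. It stood in 7 of the 27 windows of amino acid enzyme and transporter genes that were lower (25.9%), and in the same 7 of all 57 such genes with a window (12.3%). These lists share genes with the stress list and were drawn with earlier results known. The share without the stress list genes was not taken. Of all genes lower by at least 2-fold, 7.32% (12 of 164) had it, of those higher by at least 2-fold 0.588% (1 of 170), and of the lower ones outside the 3 lists set aside 3.73% (5 of 134). A match is a run of letters and does not show a site in use. The 7 matches among lower amino acid genes are shown with up to 10 bases on either side, on the strand of the gene and with the element in capitals. The window of ASNS is at chr7:97872459-97872486, of BCAT1 at chr12:24949132-24949159, of GOT1 at chr10:99430805-99430832, of SLC1A3 at chr5:36596358-36596385, of SLC38A1 at chr12:46266503-46266530, of SLC3A2 at chr11:62881726-62881748 and of SLC7A1 at chr13:29595664-29595691. The genes of SLC1A3 and SLC3A2 lie on the plus strand and the other 5 on the minus strand.
ASNS: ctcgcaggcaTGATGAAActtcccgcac
BCAT1: gtcttcctgcTGATGCAAtccgctaggt
GOT1: attgcattggTTGCATCAttctcggcag
SLC1A3: aggaaatgacTGATGCAAagcagggtta
SLC38A1: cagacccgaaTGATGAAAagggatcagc
SLC3A2: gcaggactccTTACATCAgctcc
SLC7A1: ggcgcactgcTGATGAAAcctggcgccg

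In ASNS, the asparagine synthetase gene, the element began 68 bases before the start, and the gene fell by 2.47 (SE 0.04), the largest change of the 7. In SLC7A1, the arginine carrier gene (-0.67, SE 0.04), it began 7 bases past the start, and in SLC38A1, a glutamine carrier gene (-0.58, SE 0.03), 4 bases before it. GOT1 and SLC3A2 had it on the opposite strand, so that the capitals read as its reverse complement. The aspartate aminotransferase gene GOT1 (-0.16, SE 0.05), the branched-chain aminotransferase gene BCAT1 (-0.39, SE 0.06) and the glutamate carrier gene SLC1A3 (-0.37, SE 0.07) were lower by less than 0.5. Outside the amino acid lists, FUT1 and S100P also held the element, on minus-strand chr19:48755460-48755487 and plus-strand chr4:6693745-6693772, and they are shown because they were among the largest decreases.
FUT1: tcctcctcccTGATGCAAtcctggtgtt
S100P: caacgatgcaTTTCATCAgaactgagca

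The MEF2 element, CTA then any 4 bases then TAG, which reads the same on both strands, stood in 2.19% of all windows, in 3.53% (6 of 170) of the windows of genes higher by at least 2-fold and in 1.22% (2 of 164) of those lower. The NFE2L2 element TGACNNNGC was in 14.9% of all windows, 14.1% of the higher and 14.6% of the lower set. The AP-1 element TGANTCA was in 5.43%, 3.53% and 8.54%. Outside the 3 lists set aside it was in 4.11% (3 of 73) of the higher and 6.72% (9 of 134) of the lower set. There the MEF2 element was in 4.11% and 0.746%, and the NFE2L2 element in 9.59% and 11.2%. The cAMP, E-box, E2F, metal response and TEAD elements were searched too. The E2F form TTTGGCGC was in 0.973% of all windows, 5.88% of the higher and 0% of the lower set. Outside those lists it was in 1.37% of the higher set. The AP-1 and NFE2L2 elements share their first bases, so that 1 stretch can in part count for both.

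**Figure D2:**
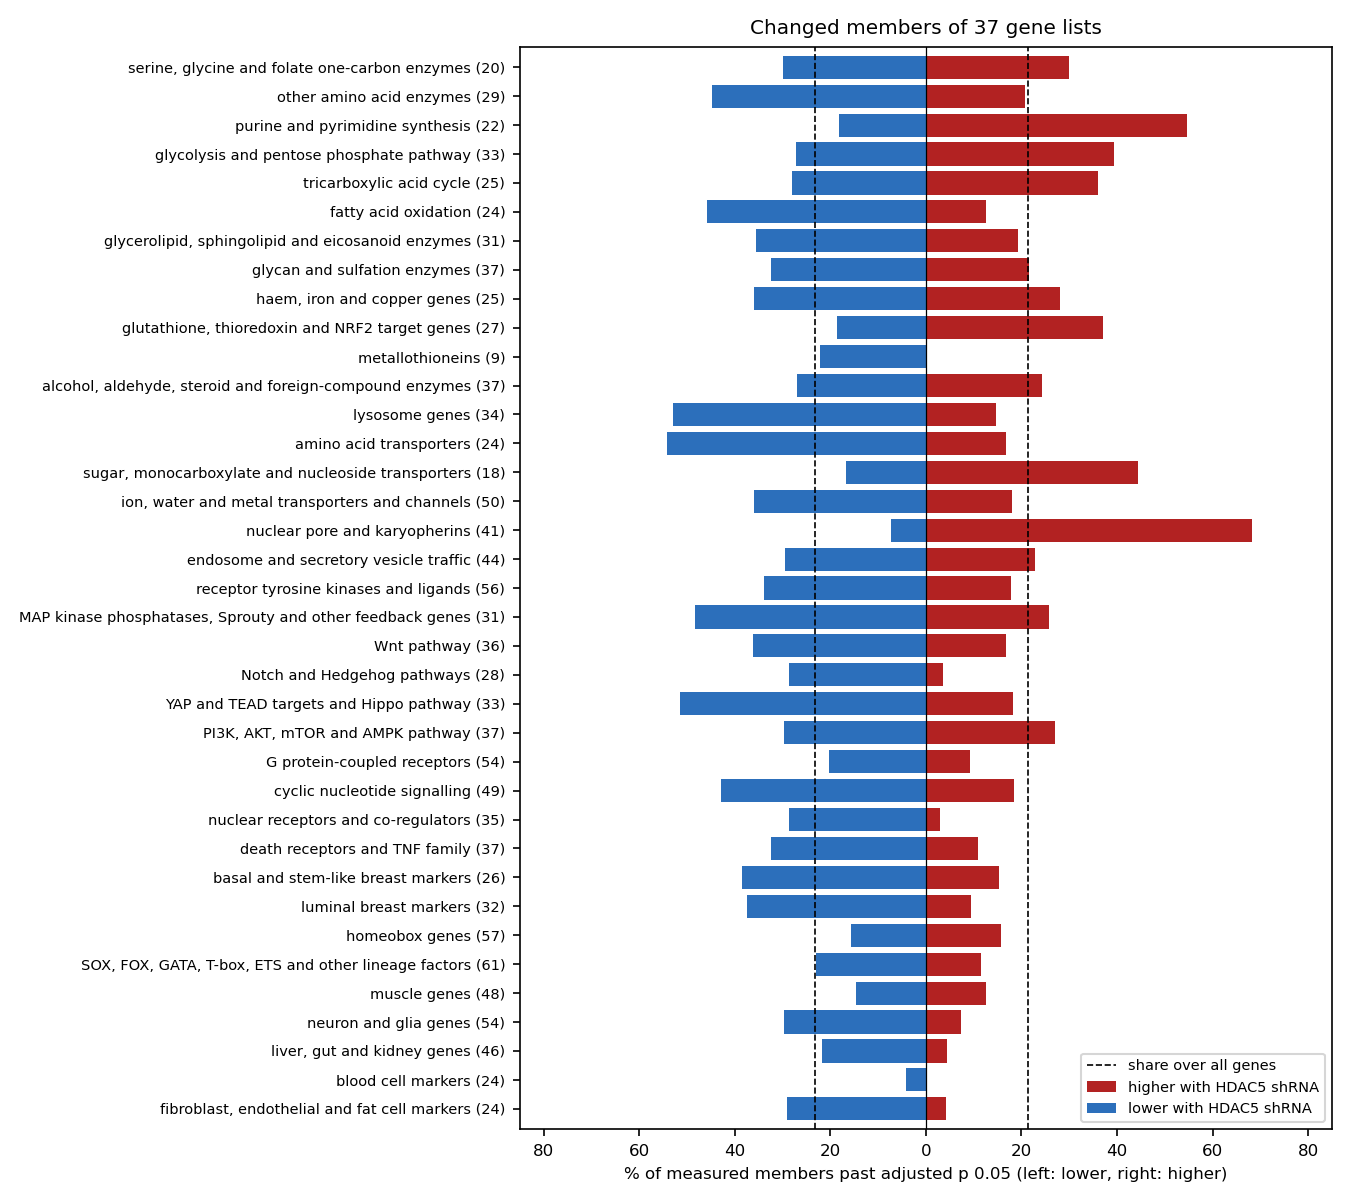
Share of the measured members of each of 37 gene lists (number in brackets) that were lower (blue, left) or higher (red, right) with HDAC5 shRNA at an adjusted p under 0.05, with the shares over all genes, 23.2% and 21.3%, as dashed lines. Nuclear pore genes reach farthest to the right (28 of 41), and amino acid transporters (13 of 24), lysosome genes (18 of 34) and YAP and TEAD targets (17 of 33) farthest to the left.

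Nucleotide synthesis went up more often than down. Of 22 measured genes of purine and pyrimidine synthesis, 12 were higher and 4 lower, with a median change of 0.19. CTPS1, which makes CTP, read 8.45, 8.50 and 8.34 on the scramble arrays and 9.57, 9.48 and 9.69 with HDAC5 shRNA (1.15, SE 0.07, adjusted p = 4e-07). UMPS, the last enzyme of UMP synthesis, rose by 0.86 (SE 0.05), PFAS of the purine pathway by 0.79 (SE 0.04), and PRPS2, which supplies the ribose phosphate, by 0.77 (SE 0.07). With the spread of 12 arrays, 2 of the 22 genes were lower. Groups without overlap were found for 16 of the 22 genes, against 50.8% of all genes. The 4 genes were named for the size of their changes, so the separation of their own groups adds nothing.

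Central carbon genes changed in both directions and by little. In glycolysis and the pentose phosphate pathway 13 of 33 genes were higher and 9 lower (median 0.06). PKM, the pyruvate kinase gene, rose by 0.53 (SE 0.08), from 10.42, 10.20 and 10.10 to 10.75, 10.90 and 10.65. The brain glycogen phosphorylase gene PYGB fell by 0.77 (SE 0.05), and PGLS, of the pentose phosphate pathway, by 0.54 (SE 0.07). PCK2 was the single change of at least 2-fold. Of 25 genes on the tricarboxylic acid cycle list 9 were higher and 7 lower, none by 2-fold. The largest changes were those of SUCLG2 (-0.50), ME1 (-0.50, with further probe sets at -0.54 and -0.08), PC (-0.49) and IDH1 (-0.44). ME1, PC and IDH1 are enzymes beside the cycle rather than steps of it. SUCLG2, ME1 and IDH1 did not pass when the spread was estimated over all 12 arrays. That fit left 4 genes of the cycle list higher and 3 lower, and 5 glycolysis genes lower.

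Fatty acid oxidation leaned down, with 11 of 24 genes lower and 3 higher (median -0.15), though by less than 2-fold in each. ECI1, an isomerase for unsaturated chains, read 9.60, 9.77 and 9.48 against 8.80, 8.84 and 8.94 (-0.75, SE 0.07). ACSL1, which activates long chains, fell by 0.71 (SE 0.06), and ETFB and ETFDH, which pass the electrons on, by 0.60 and 0.47. In 1 fit of all 12 arrays 6 of the 24 were lower, without ACSL1, and 1 was higher, as without HDAC5 shRNA array 3. Among 31 genes of glycerolipids, sphingolipids and eicosanoids 11 were lower and 6 higher. The single decrease of at least 2-fold was that of PTGS2 (-1.85, SE 0.10), the inducible cyclooxygenase gene, which is on the cytokine list. Next came the lipin gene LPIN2 (-0.98, SE 0.07), the phospholipase D family gene PLD3 (-0.93, SE 0.10) and the phospholipase A2 gene PLA2G4A (-0.79, SE 0.05), which releases arachidonic acid. HPGD, which breaks down prostaglandins, was at -0.75 (SE 0.11), with further probe sets at -0.77, -0.26 and -0.07, and did not pass over 12 arrays. With all 12 arrays in the fit, 2 of the 31 were higher.

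Of 37 glycan and sulfation enzymes 12 were lower and 8 higher, and all 4 changes of at least 2-fold were decreases. After FUT1 came ST6GAL1, the sialyltransferase of N-glycans, from 8.06, 8.20 and 8.05 to 6.58, 6.71 and 6.66 (-1.46, SE 0.07). Its 2 further probe sets, at -0.01 and 0.08, did not pass. GALNT6, which starts O-glycans, fell by 1.40 (SE 0.11), and GFPT1, the entry to hexosamine synthesis, fell too (-1.33, SE 0.06), with its further probe set at -1.25. In the fit of 12 arrays, 7 of the 37 were lower and 5 higher.

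Lysosome genes were lower in 18 of 34 cases and higher in 5, with a median of -0.22. LAMP3, an inducible membrane protein of the lysosome, read 8.25, 8.52 and 8.10 against 5.74, 6.06 and 5.83 (-2.41, SE 0.12). The other decreases were below 2-fold: the protease gene CTSH fell by 0.81 (SE 0.07), the acid glucosidase gene GAA by 0.79 (SE 0.08), and IDUA was at -0.89 (SE 0.10), although its further probe sets, at -0.01 and -0.13, did not pass. CTSH and GAA had changes of -0.97 and -0.87 with LSD1 shRNA too, which did not pass in that experiment, and the difference between the 2 shRNAs did not pass either. The number of higher genes was 3 over all 12 arrays, without scramble array 3 or without HDAC5 shRNA array 3.

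Redox genes of the glutathione and NRF2 list were higher in 10 of 27 cases and lower in 5. GPX3, a secreted glutathione peroxidase, rose from 7.17, 7.05 and 6.95 to 7.99, 8.06 and 7.96 (0.95, SE 0.07). NQO1, a quinone reductase and classic NRF2 target, rose by 0.81 (SE 0.04), and by 0.84 and 0.80 on its further probe sets. KEAP1, the inhibitor of NRF2, rose by 0.64 (SE 0.05) and the peroxiredoxin gene PRDX1 by 0.56 (SE 0.03). The 2 decreases of at least 2-fold were those of TXNIP and SLC7A11, which are on the stress list.

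Metallothionein genes changed little. Of 9 measured, 2 were lower, MT1X by 0.16 (SE 0.03) and MT1H by 0.12 (SE 0.04, adjusted p = 0.0433), and neither passed over 12 arrays. MT1H passed with scramble array 3 left out but not with any of the other 5 arrays left out. These genes are near-identical in sequence. In the haem, iron and copper list 9 of 25 were lower and 7 higher, with the biliverdin reductase gene BLVRB at -1.02 (SE 0.06), PPOX, of haem synthesis, at -0.66 (SE 0.07), and the mitochondrial iron importer gene SLC25A37 at -0.74 (SE 0.05) with further probe sets at -0.68 and -0.04, while the iron importer gene SLC11A2 had probe sets at 0.67, 0.55, -0.05 and -0.38. Higher genes numbered 4 without scramble array 1 and 3 over all 12 arrays.

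Enzymes of alcohols, steroids and foreign compounds counted 9 higher and 10 lower of 37. CYP1A1, the main target of the aryl hydrocarbon receptor, read 7.62, 7.62 and 7.92 on the scramble arrays and 5.88, 5.75 and 6.03 with HDAC5 shRNA (-1.83, SE 0.10, adjusted p = 3.02e-07). The retinaldehyde reductase gene DHRS3 fell by 1.15 (SE 0.13) and NNMT, which methylates nicotinamide, fell too (-1.06, SE 0.12). CBR3, a carbonyl reductase, rose by 0.92 (SE 0.05). Over all 12 arrays 5 of the 37 were lower.

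**Figure D3:**
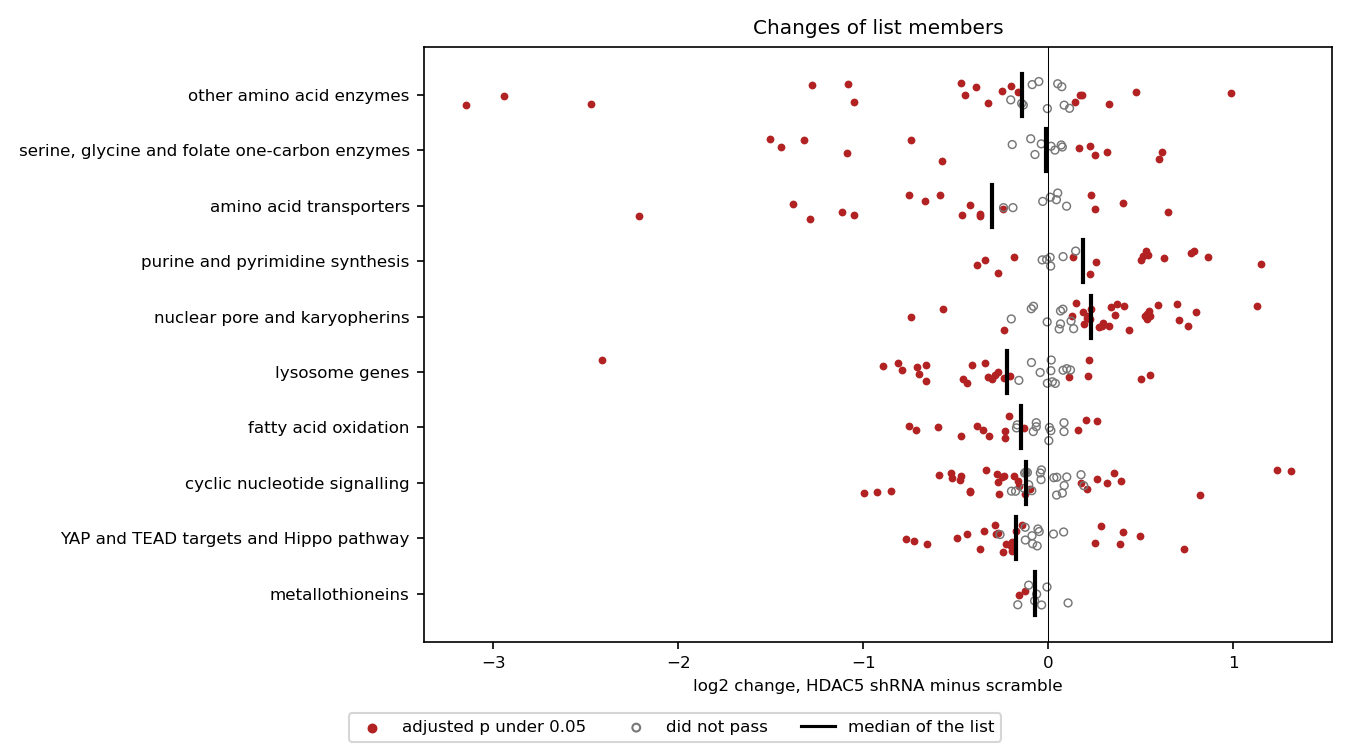
Log2 change (HDAC5 shRNA minus scramble, x axis) of each measured member of 10 lists, red where the adjusted p was under 0.05 and open where it was not, with the median of the list as a bar; points are spread vertically for legibility. The amino acid lists have tails to the left down to -3.15 for ASS1, nuclear pore genes lie mostly to the right of 0, and metallothionein genes stay between -0.16 and 0.11.

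Nuclear transport had the highest share of changed members among the 38 lists. Of 41 nuclear pore and karyopherin genes 28 were higher and 3 lower (75.6%), with a median of 0.23, and the difference from the change with LSD1 shRNA passed in 25. NUP85, of the outer ring of the pore, read 9.42, 9.45 and 9.28 against 10.50, 10.43 and 10.61 (1.13, SE 0.06, adjusted p = 2.99e-07). The central channel gene NUP62 rose by 0.80 (SE 0.06) and the inner ring gene NUP93 by 0.76 (SE 0.05). KPNA4, an importin alpha, was at -0.74 (SE 0.08) with its further probe set at 0.02. In vesicle traffic the largest change was that of AP1M2, the epithelial adaptor subunit, from 9.32, 9.32 and 9.37 to 10.31, 10.38 and 10.35 (1.01, SE 0.04). There 10 of 44 were higher and 13 lower, with the Rab GTPase gene RAB8A at 0.55 (SE 0.05) and the SNARE gene SNAP23 at -0.67 (SE 0.06). Without scramble array 2 there were 8 lower, and over all 12 arrays 6 higher and 6 lower. RAB27A had probe sets at 0.60, 0.65, -0.20 and -0.45, so its direction depends on the probe set.

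Other transporters changed in both directions. Of 18 carriers of sugars, monocarboxylates and nucleosides 8 were higher and 3 lower, but the larger changes were decreases. The monocarboxylate carrier gene SLC16A5 fell from 8.20, 8.30 and 8.21 to 7.28, 7.24 and 7.17 (adjusted p = 4.99e-07), the glucose carrier genes SLC2A10 and SLC2A3 by 0.96 (SE 0.11) and 0.89 (SE 0.08), and the nucleoside carrier gene SLC29A2 rose by 0.73 (SE 0.08). SLC2A10 fell with LSD1 shRNA too (-3.03), and its change with HDAC5 shRNA did not pass over 12 arrays. Ion, water and metal transport counted 9 higher and 18 lower of 50, with the chloride channel family genes CLIC4 (-0.73, SE 0.04) and CLIC3 (-0.71, SE 0.06) among the largest, of which CLIC3 did not pass over 12 arrays. The potassium channel gene KCNMA1 (-0.96) and the water channel gene AQP3 (-0.79) had further probe sets that did not pass. With the spread of 12 arrays, 5 of the 18 carriers were higher and 11 of the 50 ion, water and metal transport genes lower.

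Every signalling list reported here had more members lower than higher, those of growth factor receptors and their feedback included. All genes leaned the same way by a little (23.2% lower and 21.3% higher), and in some of the lists the margin was small. Among 56 receptor tyrosine kinases and ligands 19 were lower and 10 higher (median -0.06). EGFR, the epidermal growth factor receptor, read 10.17, 10.22 and 10.40 against 9.52, 9.53 and 9.41 (-0.78, SE 0.07), and it fell with LSD1 shRNA too (-1.02). Of its 5 further probe sets 3 were lower (-0.72, -0.42 and -0.37) and the other two, at 0.07 and 0.06, did not pass. Its relative ERBB3 was at -1.02 (SE 0.12) with a further probe set at -0.01, and IGFBP3, a carrier of insulin-like growth factors, fell by 0.77 (SE 0.07). The neuregulin gene NRG1 was higher by 0.81 (SE 0.05), and 3 of its 5 further probe sets passed the same way (0.50, 0.48 and 0.38). The feedback list had 15 of 31 lower and 8 higher (median -0.10). IER3, an immediate early gene, fell from 12.65, 12.81 and 12.61 to 11.63, 11.48 and 11.68 (-1.09, SE 0.06), and decreases were also called in RGS16 (-1.10, SE 0.12) and the ETS factor gene ETV1 (-0.79, SE 0.04). RGS2, like RGS16 a brake on G protein signals, rose by 0.59 (SE 0.07). With all 12 arrays in the fit, 7 of the 31 feedback genes were lower and 3 higher.

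In the PI3K, AKT, mTOR and AMPK list 10 of 37 were higher and 11 lower, with a median change of 0.04, against -0.02 over all genes. DEPTOR, an inhibitor of mTOR, read 7.80, 7.91 and 7.79 on the scramble arrays and 6.61, 6.77 and 6.69 with HDAC5 shRNA (-1.14, SE 0.07, adjusted p = 4.73e-07). DDIT4, an inhibitor of mTORC1 on the stress list, and RPS6KA2 were the other two decreases of at least 2-fold. The regulatory subunit gene PIK3R3 was at 1.04 (SE 0.09), with a further probe set at 0.15, and the catalytic subunit gene PIK3CD at -0.68 (SE 0.07), with a further probe set at 0.07. In the fit of 12 arrays, 6 of the 37 were higher.

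Genes of the Hippo pathway and its outputs, among them YAP and TEAD targets, were lower in 17 of 33 cases and higher in 6 (median -0.18). CCN2, a matricellular growth factor and much used YAP target, fell from 11.71, 11.56 and 11.77 to 10.92, 11.02 and 10.92 (-0.73, SE 0.05), and the tumour suppressor gene DLC1 was at -0.65 (SE 0.05), with further probe sets at -0.49 and 0.07, the last of which did not pass. The factors and their coactivators went both ways: TEAD1 rose by 0.74 (SE 0.14) and YAP1 by 0.40 (SE 0.06), whereas TEAD3 fell by 0.44 (SE 0.08) and the coactivator gene WWTR1 by 0.19 (SE 0.05). All but TEAD1 were picked out after their values were seen. Over all 12 arrays 8 of the 33 were lower.

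Wnt, Notch and Hedgehog genes, like the other signalling lists, were lower more often than higher. Of 36 Wnt genes 13 were lower and 6 higher (52.8%, against 44.5% of all genes). Their median change was -0.01, against -0.02 over all genes. The coreceptor gene LRP5 read 8.83, 8.70 and 8.47 against 7.40, 7.65 and 7.55 (-1.13, SE 0.10), and WNT5A, a noncanonical ligand, fell by 0.47 (SE 0.07), which did not pass over 12 arrays. The inhibitor gene DKK3 was at -1.10 (SE 0.11), with 2 of its 4 further probe sets lower (-0.64 and -0.49). The number of lower Wnt genes was 8 without HDAC5 shRNA array 3, 6 without scramble array 1 and 6 over all 12 arrays. Of 28 Notch and Hedgehog genes 8 were lower and 1 higher (32.1%), with a median of -0.10. The Notch target HEY1 fell from 9.34, 9.51 and 9.27 to 8.08, 8.11 and 8.32 (-1.20, SE 0.08), with its further probe set at -1.04, and HEY1 was at 0.95 with LSD1 shRNA, which did not pass, the difference between the 2 passing (adjusted p = 0.000407). ADAM17, the sheddase, fell by 0.80 (SE 0.05), the ligand gene JAG1 was at -0.54 (SE 0.05) with 2 of 3 further probe sets lower, and the Fringe gene RFNG fell by 0.59 (SE 0.07). With all 12 arrays in the fit, 5 of the 28 were lower, and without scramble array 1 there were 3 higher.

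Cyclic nucleotide signalling had 21 of 49 genes lower and 9 higher, but both changes of at least 2-fold were increases. AKAP12, which anchors protein kinase A, read 9.24, 9.17 and 9.39 on the scramble arrays and 10.54, 10.58 and 10.61 with HDAC5 shRNA (1.31, SE 0.06, adjusted p = 7.52e-08). PDE4B, a cAMP phosphodiesterase, rose by 1.24 (SE 0.10) and by 1.07 on a further probe set, with the last at 0.05. GNAL, a stimulatory G protein subunit, fell by 0.99 (SE 0.08), and its 3 further probe sets passed the same way. PDE2A, a phosphodiesterase that cGMP activates, fell by 0.93 (SE 0.08). With probe sets averaged per gene, 13 of the 49 were lower, and over all 12 arrays 10.

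Of 54 G protein-coupled receptors 17 lay below the lower quartile in both groups, 11 were lower and 5 higher (29.6%). PTGFR, the prostaglandin F receptor, read 6.59, 6.68 and 6.71 against 4.90, 5.30 and 5.29 (-1.50, SE 0.10), and the bradykinin receptor gene BDKRB2 fell by 0.90 (SE 0.13). The ATP receptor gene P2RY2 rose by 0.85 (SE 0.07), and the thromboxane receptor gene TBXA2R was at 0.91 (SE 0.06) with further probe sets at 0.55, 0.06 and -0.01. Among 35 nuclear receptors and co-regulators 10 were lower and 1 higher (31.4%). Of these, NR3C2, the mineralocorticoid receptor, was at -0.62 (SE 0.08) and ESRRA at -0.48 (SE 0.06). Of 37 genes of death receptors and the TNF family 12 were lower and 4 higher (43.2%). TNFSF4, the OX40 ligand, went from 5.78, 5.61 and 5.64 to 3.81, 3.95 and 4.27, and TNFSF15 from 4.84, 5.22 and 5.50 to 3.11, 3.38 and 3.10, both ending below the lower quartile. TNFRSF9, the 4-1BB receptor, fell by 1.09 (SE 0.14), and the death receptor gene FAS rose by 0.77 (SE 0.09). In the fit of 12 arrays, the numbers lower were 7 for G protein-coupled receptors, 5 for nuclear receptors and 7 for the TNF family. The single higher nuclear receptor gene was lost without scramble array 1, scramble array 2 or HDAC5 shRNA array 3, and there were 2 without HDAC5 shRNA array 2.

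Markers of the breast lineages were lower more often than higher. In bulk RNA, fewer cells of a type and less RNA per cell cannot be told apart. Of 32 luminal markers 12 were lower and 3 higher, 5 of the decreases being at least 2-fold. The trefoil factor genes TFF3 and TFF1 fell from 8.60, 8.55 and 8.35 to 7.02, 6.94 and 6.98 and from 7.44, 7.43 and 7.32 to 6.38, 6.29 and 6.11. GREB1, an oestrogen receptor target, was at -1.19 (SE 0.06), with further probe sets at -0.01 and 0.06. The luminal factor genes ESR1 (-0.02), PGR (-0.04) and FOXA1 (0.08) did not pass, while GATA3 and EPCAM, the epithelial adhesion molecule gene, rose by 0.29 (SE 0.05) and 0.67 (SE 0.09). Of 26 basal and stem-like markers 10 were lower and 4 higher. The hemidesmosome integrin gene ITGB4 was at -1.16 (SE 0.07) with its further probe sets at -0.55, -0.09 and -0.08, and ID4, an inhibitor of differentiation, fell from 10.38, 10.42 and 10.28 to 9.51, 9.62 and 9.38 (-0.86, SE 0.07).

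Developmental transcription factors changed in both directions. Of 57 genes on the homeobox list 9 were higher and 9 lower (31.6%), and 18 lay below the lower quartile in both groups. HOXB7, which sets position along the body axis, read 7.61, 7.60 and 7.54 on the scramble arrays and 6.58, 5.89 and 6.03 with HDAC5 shRNA (-1.42, SE 0.15), with its further probe sets at -0.40 and -1.85. SATB1, a chromatin organiser, fell by 0.76 (SE 0.05). LMO4, a LIM-only factor gene that is on this list but has no homeobox, fell by 0.74 (SE 0.05). SIX2, of kidney progenitors, rose by 0.70 (SE 0.08). Of 61 SOX, FOX, GATA, T-box, ETS and other factors 7 were higher and 14 lower (34.4%). MYC fell from 10.13, 10.25 and 10.20 to 9.42, 9.41 and 9.50 (-0.75, SE 0.05), and was at -0.66 with LSD1 shRNA, which did not pass. ELF4 rose by 0.64 (SE 0.05).

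Muscle genes, many of them targets of MEF2 in muscle itself, had 6 of 48 higher and 7 lower (27.1%), with 19 below the lower quartile in both groups and a median of -0.03. CSRP2, a LIM protein of smooth muscle, rose from 9.79, 9.83 and 9.80 to 10.94, 11.04 and 11.04 (1.20, SE 0.04, adjusted p = 2.03e-08), and by 1.19 on its further probe set. SMTN, the smoothelin gene of contractile smooth muscle, rose by 0.97 (SE 0.09), and SGCB was at 0.76 (SE 0.04) with a further probe set at 0.16. ACTA2, smooth muscle actin, was at -0.65 (SE 0.08) with its further probe set at 0.01. Over all 12 arrays 4 muscle genes were lower. Of 54 neuron and glia genes 16 were lower and 4 higher, and the synaptic genes SYT1 (-0.96, SE 0.06) and DLG4 (-1.07, SE 0.07) each had a further probe set that did not pass (-0.58 and 0.00).

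Of 46 liver, gut and kidney genes 10 were lower and 2 higher (26.1%), and 17 lay below the lower quartile in both groups, with the serpin gene SERPINA3 from a mean of 6.86 to 5.74 (-1.12, SE 0.11). Of 24 blood cell markers 1 was lower, CD8A at -0.37 (SE 0.07), and none higher (4.17%). Of 24 fibroblast, endothelial and fat cell markers 7 were lower and 1 higher, with 12 below the lower quartile in both groups. Of these markers, FABP4 was at -0.74 (SE 0.10), PDGFRB at -0.48 (SE 0.10), PECAM1 at -0.62 (SE 0.08) with further probe sets at -0.30 and -0.02 that did not pass, and LPL at 0.42 (SE 0.15, adjusted p = 0.0438), which passed with scramble array 3 left out but not with any other. FABP4, PECAM1 and LPL did not pass over 12 arrays. Without HDAC5 shRNA array 2 there were 6 lower liver, gut and kidney genes, and as many over all 12 arrays, which called none higher. There was 1 higher with scramble array 2, scramble array 3 or any HDAC5 shRNA array left out. Blood cell markers lower numbered 4 without HDAC5 shRNA array 1 and 2 without scramble array 3. Fibroblast, endothelial and fat cell markers lower numbered 4 without scramble array 1 and 2 over all 12 arrays.

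The changes were set beside those with LSD1 shRNA, which share no array with them. LSD1, the KDM1A product, demethylates histones. Over all genes the difference between the 2 changes passed for 31.8% (limma contrast over 12 arrays, adjusted p under 0.05), and 4.92% of genes changed with LSD1 shRNA. The difference passed for 11 of the 14 largest increases and 13 of the 14 largest decreases. These genes were picked by the size of the HDAC5 shRNA change, which is part of the difference tested. Their counts therefore cannot be set against the share over all genes. The 3 increases for which it did not pass were the histone genes H1-2, H2BC12L and H2BC9, with changes of 1.25, 1.41 and 1.23 with LSD1 shRNA that did not pass in that experiment. In each of these histone genes LSD1 shRNA array 2 read lower than arrays 1 and 3, with 9.71 against 11.15 and 11.01 for H2BC12L. Among the decreases the difference did not pass for CST4 (-0.89 with LSD1 shRNA). FUT1 was lower with both (-2.72 and -0.71), and CSTA lower with HDAC5 shRNA and higher with LSD1 shRNA (0.89, at low signal). By list, the difference passed for 15 of 29 amino acid enzymes, 11 of 20 serine and folate enzymes, 15 of 24 amino acid transporters and 15 of 22 nucleotide synthesis genes. It passed for 5 of 24 fatty acid oxidation genes, 2 of 24 blood cell markers and none of the 9 metallothioneins.

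**Figure D4:**
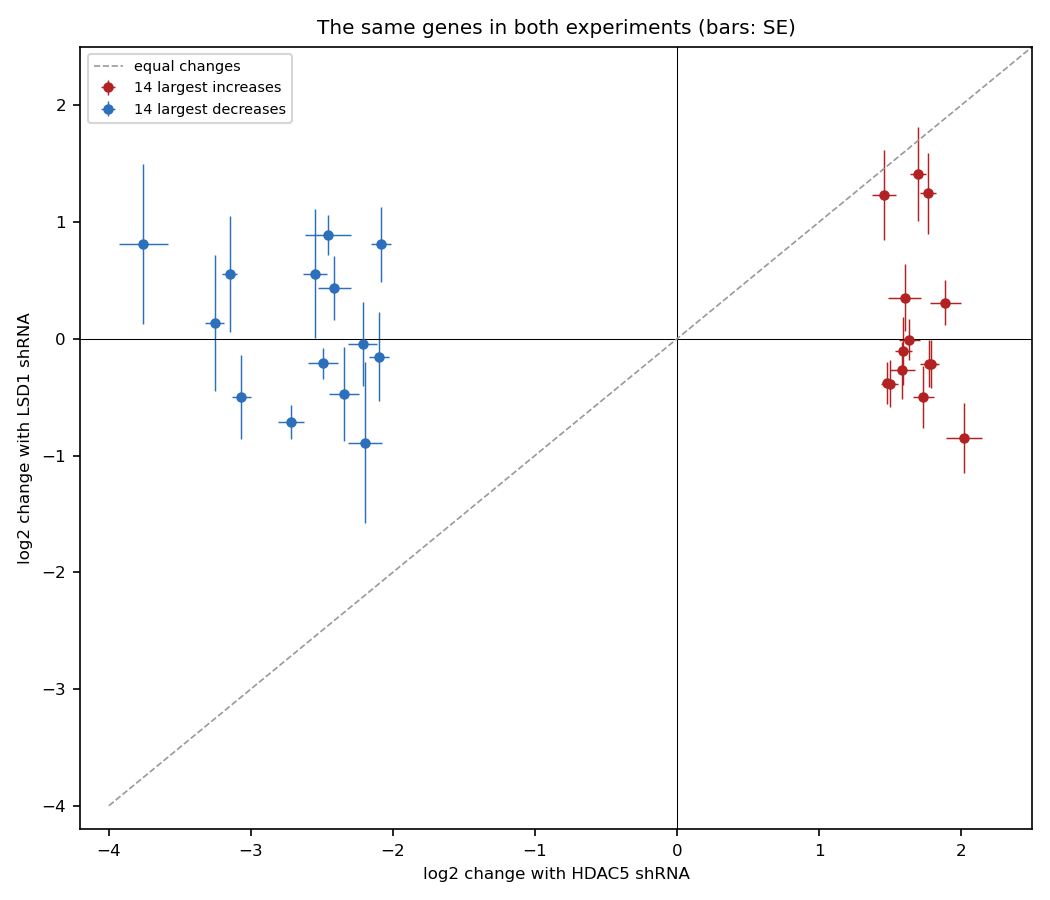
Log2 change with HDAC5 shRNA (x axis) against log2 change with LSD1 shRNA (y axis), each against its own scramble arrays, for the 14 largest decreases (blue) and increases (red) of the HDAC5 experiment; bars are standard errors. The 3 histone genes at the upper right lie nearest to the line of equal changes, and the bars are longer for LSD1 shRNA, whose arrays varied more.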

How the data were processed

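RNA of 12 MDA-MB-231 samples was measured on 1 Affymetrix array each. The deposited values are log2 signals that the authors made with RMA in the affy package, per the submitters' processing notes (versions not given in the sources used here). RMA corrects background, equalises arrays and summarises probes, so a shift shared by most genes is removed and low signals are compressed. Whether all arrays were processed together is not given. Of 22277 probe sets, 62 controls, 1043 with several symbols and 2108 with none were left out. Symbols of 19052 of the other 19064 were updated to RefSeq names of GRCh38.p14. Each of 11963 genes was represented by its brightest probe set (mean of the 12 arrays), with no filter.

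HDAC5 shRNA (3 arrays) was compared with its scramble (3) with limma 3.58.1 in R 4.3.3 (lmFit, eBayes with trend); SE is the moderated one. The difference from LSD1 shRNA was a contrast over 12 arrays. In data simulated for this comparison (11963 genes), 45 of 50 changes of 0.5, 49 of 50 of 1 and 50 of 50 of 2 were recovered, with 7 false calls. Far fewer genes were changed in the simulation, 50 at each size, than the 44.5% called here, and its noise was independent between genes. The number of false calls among the real arrays can thus not be read from it. The scramble set was assigned by the absence of an LSD1 tag. The number of arrays limits the precision.

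The genes to name were HDAC5, the 14 largest increases and decreases with groups that do not overlap and a higher mean at or above the lower quartile, outside the lists set aside, and up to 4 changed members of each of 38 lists with the largest change (162 genes). Of the 38 lists, 1 is not reported here. Of the 162 genes, 81 had further probe sets, and for 37 a further one did not pass the same way. Members and lists were chosen with earlier results of these data known. Other normalizations, filters, probe set rules and left-out arrays were tried. Replicate numbers did not pair the samples (correlations of deviations -0.05, -0.21 and -0.15).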

Additional observations from a re-analysis of the deposited data

Results flagged for a closer look

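Each of 5 named genes changed in opposite directions with the 2 shRNAs, passed the threshold in both experiments and passed the test of the difference (HDAC5 shRNA change minus LSD1 shRNA change, limma contrast over 12 arrays). The genes were picked for opposite changes that passed in both experiments, which makes the difference large by that choice. The p-values of the difference therefore add no support. CSTA, a cystatin of keratinocytes, was at -2.46 with HDAC5 shRNA and 0.89 with LSD1 shRNA, a difference of -3.35 (adjusted p = 1.1e-05). Its mean with HDAC5 shRNA (3.80) and all 6 values in the LSD1 experiment (3.81 to 5.16) lay below the lower quartile of their arrays, so the sizes are not exact. The synaptotagmin gene SYT1 was at -0.96 and 2.72, a difference of -3.68 (adjusted p = 2.02e-05). ARG2 was at -1.28 and 1.37, a difference of -2.65 (adjusted p = 7.73e-05). The orphan receptor gene NR2C1 was at -0.43 and 0.47, a difference of -0.91 (adjusted p = 6.38e-05). SIX2 was at 0.70 and -0.71, a difference of 1.40 (adjusted p = 0.000127). Further probe sets of ARG2 (0.02), SYT1 (-0.58) and NR2C1 (0.15 and 0.29) did not pass or went the other way with HDAC5 shRNA.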

How the results depend on the processing

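In 1 fit of all 12 arrays, the genes changed with HDAC5 shRNA numbered 3512 in place of 5319, and the genes lower with HDAC5 shRNA 1724 in place of 2770. Leaving out each array in turn gave 4563 to 5046 changed genes, and the genes changed at least 2-fold with HDAC5 shRNA were then 394 to 428. A fit with the replicate block gave 4869 changed genes, and 415 of at least 2-fold; the numbers do not pair the samples. With all arrays shifted to 1 median, the genes higher with HDAC5 shRNA were 2871 and those lower 2478. Of the named genes' changes over all alternatives, 2386 kept their direction and side of the threshold, 27 lost the threshold and 2 reversed: RAB27A (-0.20) with the probe set that was highest over the 6 arrays, and NR2C1 (0.00) with the mean of probe sets. Of those lost, 13 were lost in the fit of 12 arrays. With the mean of probe sets the change was 0.96 for MYB, 0.70 for PCDH7, -1.56 for SHANK2, -0.63 for ARG2 and -0.46 for ST6GAL1. Where an alternative moved a value, the cause was not tested beyond its own construction (other probe sets, or a wider spread).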

Other observations

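Gene families grouped by symbol after their values were seen add to the account, as a description with no test of the family. Over all genes 21.3% were higher and 23.2% lower. Tubulin chain genes were higher in 11 of 17 cases and lower in 1 (median 0.62), among them TUBB4B (1.39, SE 0.03), TUBG1, the gamma tubulin of the centrosome (1.30, SE 0.05), TUBB6 (1.20, SE 0.04), TUBB (1.05, SE 0.03) and TUBA1A (0.88, SE 0.04). RNA-binding proteins of splicing were higher as well: 14 of 19 heterogeneous nuclear ribonucleoprotein genes and 9 of 11 spliceosomal ribonucleoprotein genes, with SNRPA1 at 0.71 (SE 0.05). Proteasome subunits were higher in 22 of 33 cases and lower in 1, and mitochondrial ribosomal proteins in 25 of 51 and lower in 4.

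Other families went down or both ways. Of 10 cystatins 6 were lower and 1 higher; CST1 (-1.91, SE 0.15), CST2 (-1.93, SE 0.15) and CST4 are close copies that a probe set can share, while CSTB, a cytoplasmic cystatin, rose by 0.41 (SE 0.04). Autophagy genes were lower in 9 of 20 cases and higher in 5, with MAP1LC3B, which marks autophagosomes, at -0.65 (SE 0.04). Mitochondrial carriers of the SLC25 family were higher in 15 of 28 cases and lower in 3, with the dicarboxylate carrier gene SLC25A10 at 1.18 (SE 0.12). The drug exporter gene ABCC3 fell by 1.58 (SE 0.09) and ABCG2 rose by 0.79 (SE 0.06). Of 65 potassium channel genes 4 were higher and 4 lower, with 32 below the lower quartile in both groups. Among all 238 solute carrier genes 53 were higher and 47 lower, and among 235 zinc finger genes 41 and 40. Protein tyrosine phosphatase genes were higher in 2 of 33 cases and lower in 10, and serpin genes in 2 of 26 and lower in 7.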
